A study of Homo sapiens with 12 samples.

Results

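IER2, IER3, IER5, IER5L, CSRNP1, CSRNP2, SERTAD1, SERTAD2 and SERTAD3 are 9 genes that share the name stems IER, CSRNP or SERTAD, several of them known to be switched on quickly by growth factors or stress. They were chosen by symbol, all 9 were found among the 57755 gene identifiers measured, and all 9 passed the filter on low values that left 15610 genes for testing. RNA-seq was run on 12 libraries of KYSE510 and TE7, 2 human cell lines from esophageal squamous cell carcinoma. Each line gave 1 library in DMSO, in 50 nM THZ1 for 2, 4, 6 and 12 h, and in 200 nM THZ1 for 6 h. THZ1 is a covalent inhibitor of CDK7, the kinase of the general transcription factor TFIIH that phosphorylates RNA polymerase II, and it also reaches CDK12 and CDK13. The labels name no engineered allele in either line. The medium was RPMI-1640 for KYSE510 but DMEM for TE7, so line and medium cannot be told apart. Both DMSO libraries are titled 0 h but have a time label of 12 h, and no DMSO library stands beside the 2, 4 or 6 h samples. Hours of THZ1 and hours in culture therefore cannot be told apart.

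Immediate early genes have promoters that hold RNA polymerase II ready, and their transcripts are short-lived, so their mRNA follows transcription closely. IER2, IER5 and IER5L belong to 1 family of nuclear proteins, and IER5 is known for binding the phosphatase PP2A and acting on heat shock factor 1. IER3, also called IEX-1, is an unrelated stress-induced protein that modulates apoptosis and ERK signalling. CSRNP1 and CSRNP2 are cysteine- and serine-rich nuclear proteins, and CSRNP1 was first described as a gene induced by AXIN1. SERTAD proteins share the SERTA domain. SERTAD1 binds CDK4 and the E2F1 partner DP1, SERTAD2 is a transcriptional coregulator of E2F targets, and SERTAD3 was found as a binding partner of replication protein A.

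The genes were chosen with their response to THZ1 in view, so their changes against DMSO are given as a description with no test. Values are FPKM (fragments per kilobase of transcript, scaled to the mapped fragments of the library), and changes are differences of log2(FPKM + 1), which understate the change of genes at low FPKM. A mean change is over n = 2 lines, with the standard error (SE) of the limma fit. That SE is pooled over all 12 libraries and is the same for a gene in every condition. It is not the spread of the 2 lines in the condition named. FPKM is relative within a library, and bulk RNA cannot tell fewer cells of a type from less RNA per cell.

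The libraries differed little in depth, at 0.833 to 1.02 times that of the TE7 DMSO library. Their sums of FPKM ran from 383975 in KYSE510 at 200 nM to 729515 in TE7 at 12 h. In every condition the sum was higher in TE7 than in KYSE510. Of the 12 libraries, 3 stood apart. Over the tested genes KYSE510 DMSO correlated with KYSE510 at 2 h at r = 0.879, against 0.976 for the same pair in TE7, and the 200 nM libraries with the 6 h libraries at 50 nM at 0.855 in KYSE510 and 0.865 in TE7. Squamous markers were present in both lines, with all 7 reaching 1 FPKM. KRT6A, a keratin of stratified epithelium, was at 14.4 FPKM in KYSE510 DMSO and at 930 to 1809 in the other 5 KYSE510 libraries. KRT14, a basal-cell keratin, was at 28.7 FPKM in KYSE510 DMSO, at 2.62 in KYSE510 at 200 nM and at 449 to 564 in the 4 KYSE510 libraries at 50 nM. The part of these differences in the KYSE510 changes was not tested, so the values of each of the 9 genes are given per line. Where a value is given without the 3 libraries that stood apart, TE7 DMSO is the only control left, and its spread is assumed to be like that of the other groups. The 5 fibroblast markers summed to at most 11.3 FPKM, CD68 alone of the 5 leukocyte markers reached 1 FPKM, and none of the 4 endothelial markers found did.

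The 9 genes split by time and dose. CSRNP1 and SERTAD1 were high at 2 h and low again at 200 nM, IER5L was high late and at 200 nM, and IER3 was high in both settings. At 2 h, 3 of 9 were at least 1 log2 unit above DMSO in both lines (0.621% of all tested genes were), and CSRNP1, SERTAD1 and IER3 are called the early genes here. Late genes were at least 1 above DMSO in both lines at 12 h or at 200 nM, with a mean there above that at 2 h. IER3 and IER5L were late genes (2.22% of all tested genes were), IER3 being in both classes (0.122% of all), and 5 genes were in neither. IER3 in TE7 at 2 h lay just inside the limit, at 1.02. IER5 was above the limit in TE7 alone, with 1.18 there and -0.20 in KYSE510.

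**Figure D1:**
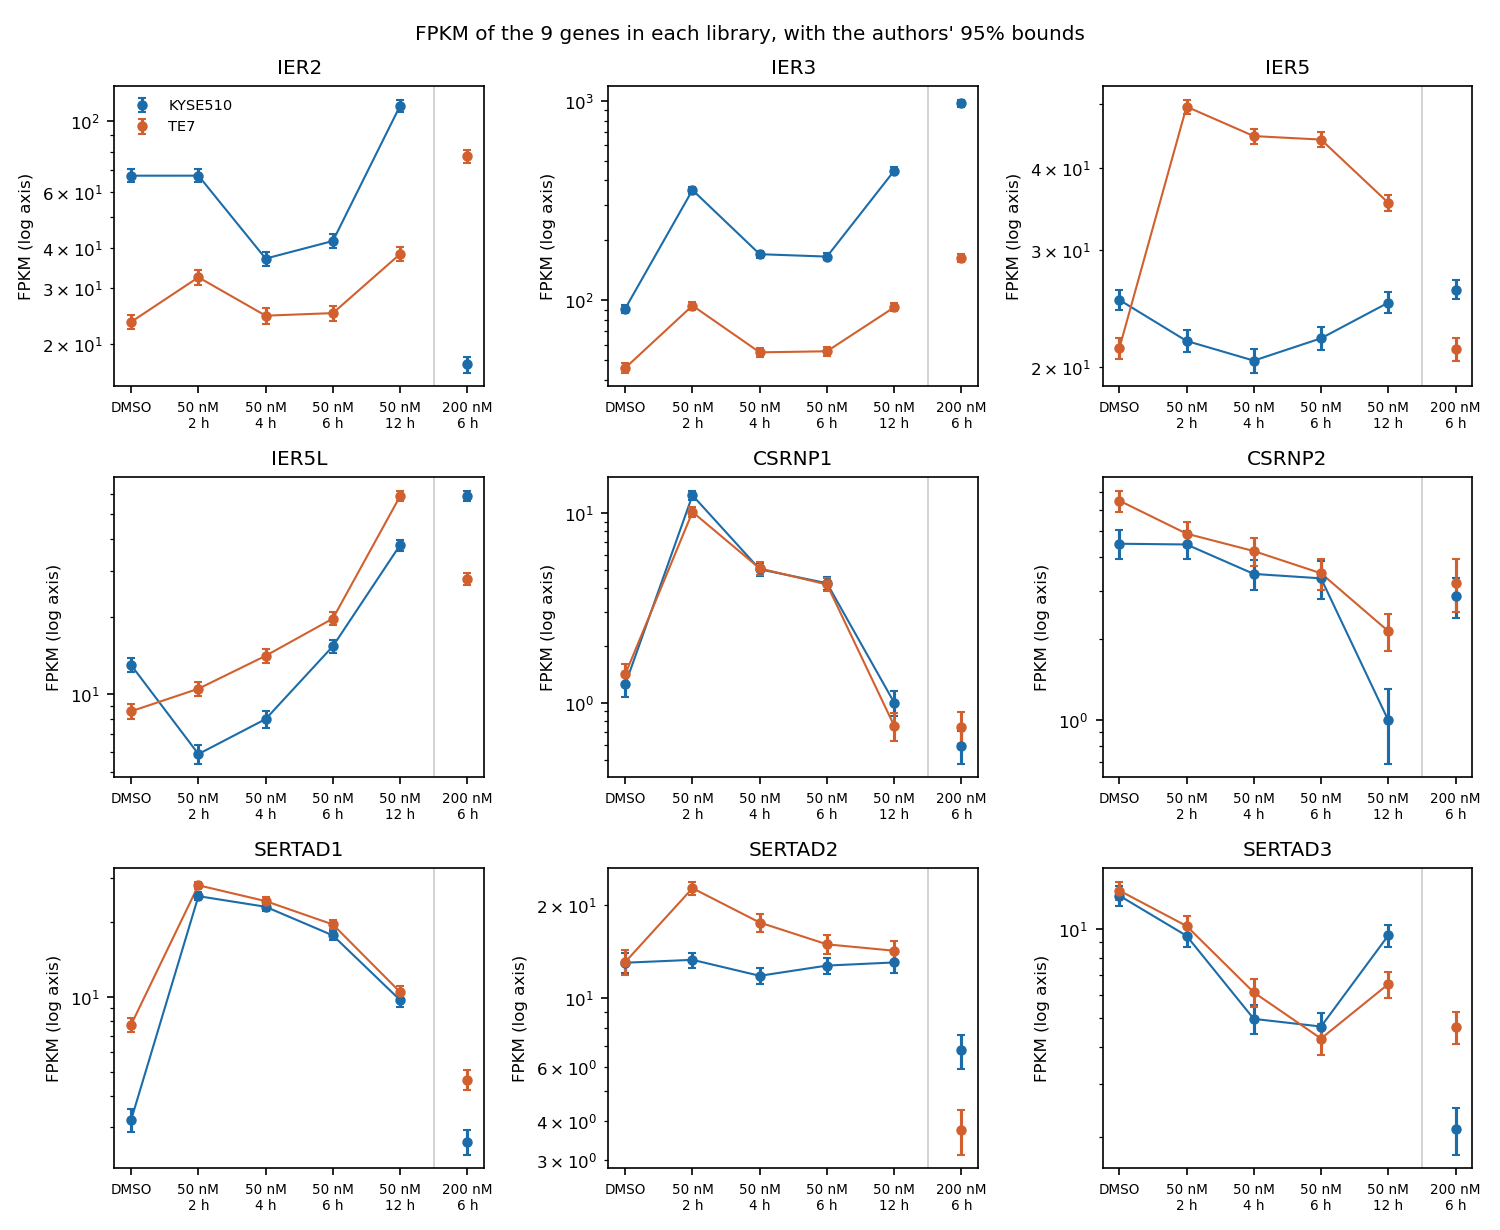
FPKM of each gene (log axis) in DMSO, at 50 nM THZ1 for 2, 4, 6 and 12 h and at 200 nM for 6 h, blue for KYSE510 and orange for TE7, 1 library per point, with the authors' 95% bounds as bars and lines joining DMSO to the 50 nM times. CSRNP1 peaks at 2 h at 12.4 and 10.1 FPKM in the 2 lines, and IER5L climbs to 37.9 and 58.7 at 12 h.

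CSRNP1 was the gene with the sharpest early peak. In KYSE510 it was at 1.25 FPKM in DMSO, 12.4 at 2 h, 5.05 at 4 h, 4.26 at 6 h, 0.999 at 12 h and 0.590 at 200 nM. In TE7 it was at 1.41, 10.1, 5.11, 4.20, 0.754 and 0.747 FPKM in the same order. Both lines were lowest at 12 h and at 200 nM and highest at 2 h, and the 2 h levels lay 9.97-fold and 7.20-fold above DMSO in KYSE510 and TE7. The mean change at 2 h was 2.39 ± 0.21 on the log2 scale, and 2.29 without the 3 libraries that stood apart. Within the 50 nM series, which leaves DMSO out, the level at 2 h was 12.4 times that at 12 h in KYSE510 and 13.5 times in TE7. By 4 h it had gone to 40.7% of the 2 h level in KYSE510 and to 50.4% in TE7. At 6 h, the level at 50 nM was 7.23 times that at 200 nM in KYSE510 and 5.63 times in TE7.

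SERTAD1, the SERTA protein that binds CDK4, was also highest at 2 h, with a slower return than CSRNP1. KYSE510 had 3.22 FPKM in DMSO, then 25.4, 23.1, 17.7 and 9.73 at 2, 4, 6 and 12 h, and 2.63 at 200 nM. TE7 had 7.75 FPKM in DMSO, then 28.1, 24.3, 19.6 and 10.5, and 4.66 at 200 nM. From 2 h on the lines were close at 50 nM, and the gap between them was widest in DMSO, where KYSE510 was the lower. The mean change was 2.19 ± 0.28 at 2 h, with 2.65 in KYSE510 and 1.73 in TE7, and 0.87 ± 0.28 at 12 h. Without the 3 libraries that stood apart it was 1.72 at 2 h and 0.40 at 12 h. The level at 2 h was 2.62 times that at 12 h in KYSE510 and 2.69 times in TE7, and 90.7% and 86.4% of the 2 h level remained at 4 h. At 6 h the 50 nM level was 6.74 times the 200 nM level in KYSE510 and 4.20 times in TE7. Its change at 200 nM against DMSO was -0.42 ± 0.28 as deposited and 0.22 with median-of-ratios scaling, so no direction holds there.

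CSRNP1 and SERTAD1 had the most alike profiles of any 2 of the 9 genes, with r = 0.887 over the 12 libraries after each line's mean was taken away. That is a description, since the libraries share their 2 lines and their treatment series. Stretches of both promoters are shown because the pair moved together. They run from 150 to 36 bases before the start of the gene in RefSeq on GRCh38.p14, on the minus strand for both, 5′ to 3′. Capitals mark the cAMP response half-site TGACG and the CCAAT box, on either strand. CSRNP1 lies at chr3:39153627-39153741 and SERTAD1 at chr19:40426028-40426142.
CSRNP1: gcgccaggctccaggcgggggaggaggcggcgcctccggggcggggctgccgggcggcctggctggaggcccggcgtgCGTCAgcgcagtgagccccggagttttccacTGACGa
SERTAD1: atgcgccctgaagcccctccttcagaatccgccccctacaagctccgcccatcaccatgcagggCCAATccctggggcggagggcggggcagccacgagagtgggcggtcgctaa
CSRNP1 holds 2 TGACG half-sites, 41 and 72 bases before its start, and no CCAAT box in the 250 bases before it, while SERTAD1 holds 1 CCAAT box, 86 bases before its start, and no TGACG. Of the motifs searched, TGACG was in 21.2% and CCAAT in 32.0% of 35116 RefSeq promoters of the same 250 bases. RefSeq has 2 CSRNP1 starts, and the one not printed holds neither motif. The other motifs searched were the full cAMP response site TGACGTCA, the TATA box as TATAAA, the ETS core as CCGGAA, the GC box as GGGCGG, the heat shock element core as GAANNTTC and the CArG box. Both hold the GC box, 6 times in CSRNP1 and 5 times in SERTAD1, as do 42.6% of promoters, and neither holds any of the rest. A match is a description of letters and shows no binding.

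IER3 was high at 2 h and again at 12 h, and highest at 200 nM. In KYSE510 it was at 91.0 FPKM in DMSO, 358 at 2 h, 171 at 4 h, 166 at 6 h, 448 at 12 h and 978 at 200 nM. In TE7 the same conditions gave 45.8, 94.2, 54.9, 55.6, 92.4 and 164 FPKM. Every treated library lay above the DMSO library of its line, with the authors' 95% bounds apart, and 200 nM was highest in both lines. The mean change was 1.49 ± 0.35 at 2 h, 0.58 ± 0.35 at 4 h, 0.57 ± 0.35 at 6 h, 1.64 ± 0.35 at 12 h and 2.61 ± 0.35 at 200 nM. The 12 h level was 1.25 times the 2 h level in KYSE510 and 0.981 times in TE7. Levels at 4 h had gone to 47.6% of those at 2 h in KYSE510 and to 58.3% in TE7. At 6 h the 200 nM level was 5.89 times the 50 nM level in KYSE510 and 2.95 times in TE7. Without KYSE510 DMSO and both 200 nM libraries but with TE7 DMSO kept, the change was 1.06 at 2 h and 0.14 at 4 h.

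IER5L, the IER5-like member of the nuclear IER family, was the late gene with no early peak. In KYSE510 it went from 13.0 FPKM in DMSO to 5.87 at 2 h, 8.02 at 4 h, 15.4 at 6 h and 37.9 at 12 h, and was at 58.9 at 200 nM. In TE7 it went from 8.60 FPKM to 10.5, 14.1, 19.7 and 58.7, and was at 28.0 at 200 nM. Each later library at 50 nM lay above the one before in both lines with bounds apart, while the first step from DMSO went down in KYSE510 and up in TE7. The mean change was -0.38 ± 0.46 at 2 h, 2.06 ± 0.46 at 12 h (2.63 without the 3 libraries that stood apart) and 1.85 ± 0.46 at 200 nM. Within the 50 nM series the 12 h level was 6.46 times the 2 h level in KYSE510 and 5.58 times in TE7. The 200 nM level at 6 h was 3.83 times the 50 nM level in KYSE510 and 1.42 times in TE7. Its promoter on the minus strand, at chr9:129178297-129178411 of GRCh38.p14 and with the same window and capitals as above, is shown beside the early pair because it moved against them.
IER5L: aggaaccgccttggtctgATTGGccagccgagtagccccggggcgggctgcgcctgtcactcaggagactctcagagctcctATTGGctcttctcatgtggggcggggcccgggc
IER5L holds 2 CCAAT boxes, 68 and 132 bases before its start, and no TGACG. Over the 250 bases it also holds 2 GC boxes and 1 heat shock element core, found in 5.8% of promoters. That core lies 212 bases before the start, outside the stretch shown. IER5, in neither class, also holds 2 CCAAT boxes, 1 heat shock element core and no TGACG. SERTAD3, in neither class, holds 2 CCAAT boxes and 7 GC boxes, and IER2, in neither class, holds 1 TGACG. CSRNP2 and SERTAD2 hold no TGACG and no CCAAT box. A link of motifs to the classes was not tested. Over the 12 libraries IER5L had r = -0.748 with CSRNP1, -0.566 with SERTAD1 and -0.785 with CSRNP2. Its r with IER3 was 0.599.

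**Figure D2:**
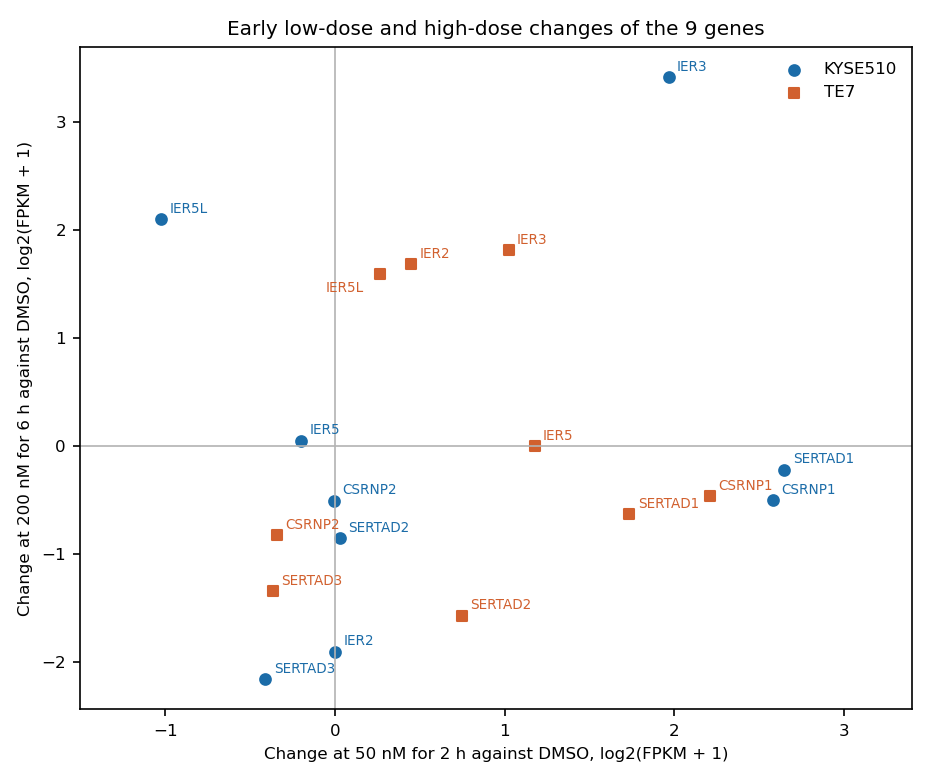
Change against DMSO at 50 nM for 2 h (x axis) and at 200 nM for 6 h (y axis), both in log2(FPKM + 1), 1 point per gene and line, circles for KYSE510 and squares for TE7. CSRNP1 and SERTAD1 sit at the right near or below 0 on the y axis, and IER3 at the upper right; both axes share the DMSO library of each line.

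IER2 and IER5 had profiles that differed in direction between the lines in some conditions, which was not tested against DMSO. IER2 in KYSE510 was at 67.4 FPKM in DMSO and at 67.4, 37.1, 42.1 and 112 at 2, 4, 6 and 12 h, and at 17.3 at 200 nM. In TE7 it was at 23.5 FPKM in DMSO, at 32.4, 24.6, 25.0 and 38.3 at 50 nM and at 77.4 at 200 nM. The 200 nM library was thus the lowest of 6 in KYSE510 and the highest of 6 in TE7, at changes of -1.90 and 1.68, and the mean of -0.11 describes neither line. At 6 h the 200 nM level against the 50 nM level was -1.24 in KYSE510 and 1.59 in TE7, a comparison that uses no DMSO library. At 12 h both lines were above DMSO, by 0.72 and 0.68.

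IER5 in TE7 was at 21.3 FPKM in DMSO, 49.5 at 2 h, 44.7 at 4 h, 44.1 at 6 h, 35.4 at 12 h and 21.3 at 200 nM. In KYSE510 it stayed between 20.4 and 26.2 FPKM in all 6 libraries. The highest library was 2.32 times the lowest in TE7 and 1.28 times in KYSE510. All 4 TE7 libraries at 50 nM lay above the whole KYSE510 range, and the DMSO and 200 nM libraries of TE7 lay inside it.

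CSRNP2, SERTAD2 and SERTAD3, paralogs of the early genes, were in neither class. CSRNP2 went from 4.50 FPKM in DMSO to 4.47, 3.48, 3.35 and 0.998 at 2, 4, 6 and 12 h in KYSE510, with 2.87 at 200 nM. In TE7 it went from 6.49 to 4.90, 4.22, 3.49 and 2.13 FPKM, with 3.23 at 200 nM. Every treated library was below the DMSO library of its line, by less than the authors' bounds in KYSE510 at 2 h, and the mean change at 12 h was -1.36 ± 0.23, or -0.90 with median-of-ratios scaling. CSRNP1 and CSRNP2 thus had different profiles, with r = 0.467 between them.

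SERTAD3 was at 12.9 FPKM in KYSE510 DMSO and at 9.47, 4.98, 4.69 and 9.49 at 50 nM, with 2.13 at 200 nM. In TE7 it was at 13.4 FPKM in DMSO and at 10.2, 6.11, 4.28 and 6.51, with 4.68 at 200 nM. All treated levels were below DMSO, the 6 h level was the lowest of the 50 nM series in both lines, and part of the level was back at 12 h. The mean change was -1.37 ± 0.31 at 6 h, -0.67 ± 0.31 at 12 h and -1.75 ± 0.31 at 200 nM. With median-of-ratios scaling it was -0.10 at 12 h and -1.09 at 200 nM. SERTAD1 and SERTAD3 lie 14819 bp apart on the minus strand of chromosome 19 with 0 other annotated genes between them, at 40927499 to 40931932 and 40946751 to 40950612 on hg19. Their profiles over the 12 libraries had r = 0.110.

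SERTAD2 in KYSE510 lay between 11.8 and 13.3 FPKM in DMSO and at 50 nM and was at 6.77 at 200 nM. In TE7 it was at 13.1 FPKM in DMSO and at 22.6, 17.5, 14.9 and 14.2 at 50 nM, with 3.74 at 200 nM. The 200 nM libraries were the lowest of both lines, with a mean change of -1.21 ± 0.33, or -0.51 with median-of-ratios scaling.

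**Figure D3:**
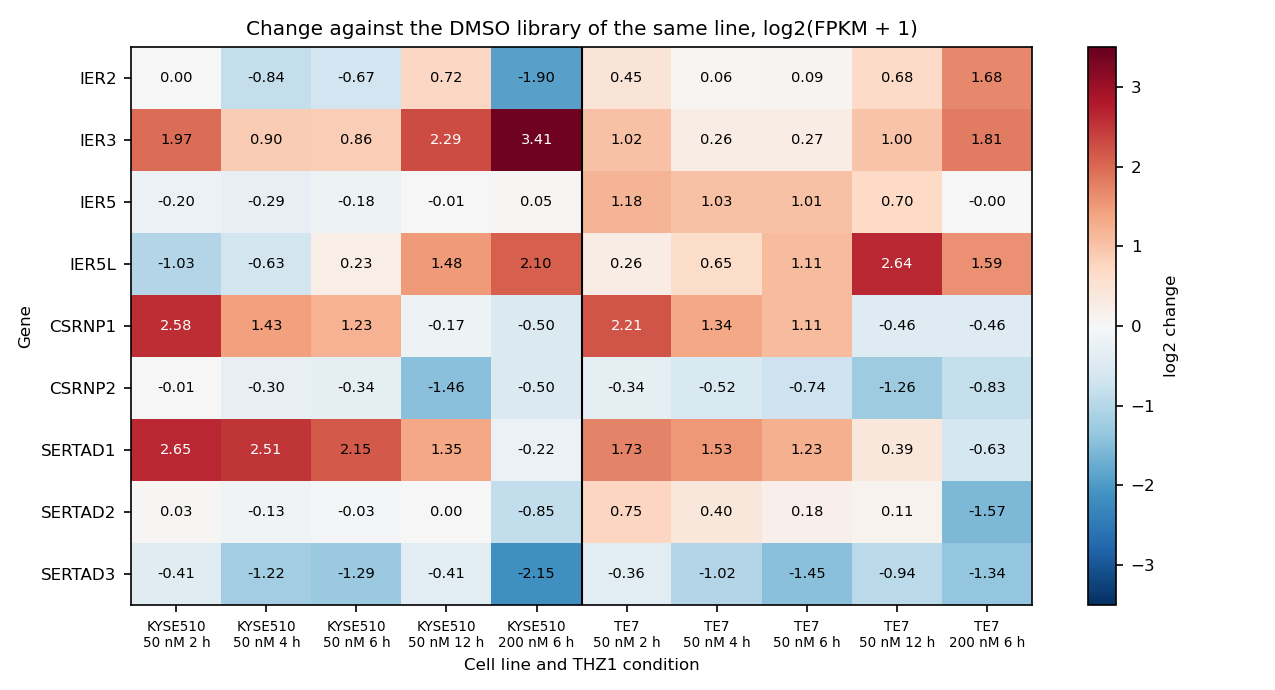
Change of log2(FPKM + 1) against the DMSO library of the same line for the 9 genes (rows) in the 5 THZ1 conditions of KYSE510 (left) and TE7 (right), red for higher and blue for lower, with the value in each cell. IER2 at 200 nM is -1.90 in KYSE510 and 1.68 in TE7, and IER3 is above 0 in all 10 cells.

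The number of genes at least 1 above DMSO in both lines was 2 of 9 at 4 h (0.641% of all tested genes), 2 at 6 h (0.814%), 1 at 12 h (1.32%) and 2 at 200 nM (1.25%). At least 1 below DMSO in both lines were SERTAD3 at 4 h (1.72% of all tested genes), 6 h (4.25%) and 200 nM (20.4%), and CSRNP2 at 12 h (15% of all tested genes). At 2 h 0 of 9 were that far below (0.455% of all). IER3 missed the 12 h count because TE7 was at 0.996. The count inside the 50 nM series, 12 h against 2 h, was 1 of 9 at least 1 higher in both lines (IER5L, 0.756% of all tested genes) and 2 at least 1 lower (CSRNP1 and SERTAD1, 13.9% of all). Between the doses at 6 h, IER3 alone was at least 1 higher in both lines at 200 nM (1.21% of all), and CSRNP1 and SERTAD1 at least 1 lower (13.1% of all). The median change of the 9 was 0.39, 0.13, 0.41, 0.35 and -0.42 in the 5 conditions, beside 0.003, -0.06, -0.14, -0.42 and -0.65 over all tested genes. Median-of-ratios scaling, which takes the median gene as unchanged, moved the median of all genes by 0.20 at 6 h, 0.47 at 12 h and 0.60 at 200 nM. Relative to that median IER3 was at 3.40 and IER5L at 2.60 at 200 nM, and CSRNP1 at 12 h was at 0.01 where it was -0.31 as deposited.

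The difference between the lines was not used to choose the genes and was tested over all 12 libraries. Each line's 6 libraries of different conditions stood in as its replicates. Only 1 of the 9 differed by limma with Benjamini-Hochberg adjustment over all tested genes, beside 46.3% of all tested genes. IER3 was lower in TE7 in 6 of 6 conditions, by a log2 difference of -1.82 ± 0.20 (SE, adjusted p = 0.000567). In KYSE510 its lowest, median and highest libraries were at 91.0, 264 and 978 FPKM, and in TE7 at 45.8, 74.0 and 164. CSRNP1 had a difference of -0.04 ± 0.12 with a 95% interval of -0.32 to 0.25 (limma adjusted p = 0.821). SERTAD1 and CSRNP2 were higher in TE7 in 6 of 6 conditions, at 0.36 ± 0.16 (limma adjusted p = 0.110) and 0.27 ± 0.13 (limma adjusted p = 0.139), and neither passed. IER5 was at 0.53 ± 0.23 (limma adjusted p = 0.0955). The remaining 4 did not pass either, from IER2 at -0.54 ± 0.45 to SERTAD2 at 0.15 ± 0.19 (limma adjusted p 0.352 to 0.682). Rescaled to equal sums of FPKM, IER5 was at 0.19 (limma adjusted p = 0.518) and IER2 at -0.88 (limma adjusted p = 0.157), and neither passed. Without KYSE510 DMSO and both 200 nM libraries the difference was -1.84 for IER3, -0.96 for IER2, 0.92 for IER5, 0.61 for IER5L and 0.40 for SERTAD2. It was 0.26 for CSRNP2, 0.11 for SERTAD1, -0.06 for SERTAD3 and -0.12 for CSRNP1. For IER2, IER5, IER5L (0.14 over all 12 libraries) and SERTAD2 the difference was thus larger in size than over all 12 libraries. The count of 1 belongs to the fit over all 12 libraries and moved with the libraries used.

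**Figure D4:**
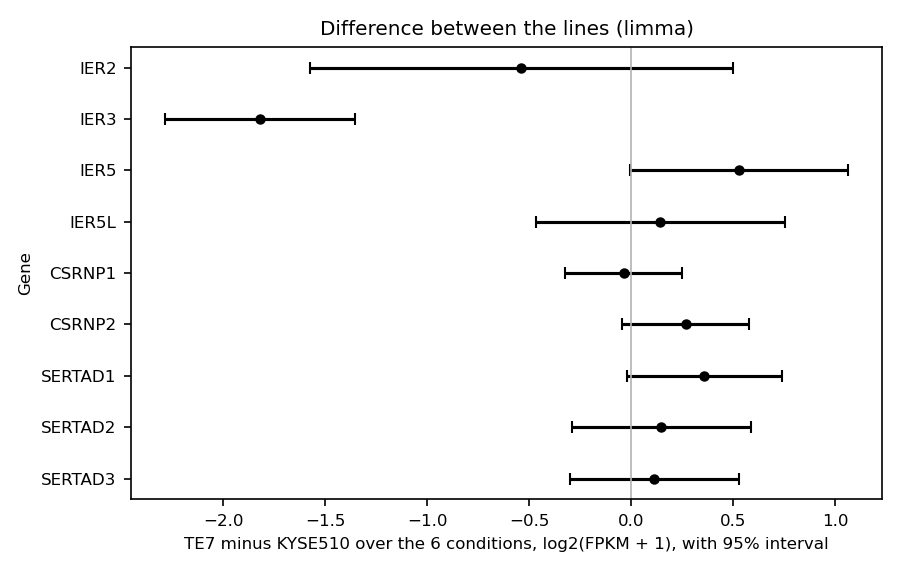
Difference of log2(FPKM + 1) between the lines (TE7 minus KYSE510, x axis) over the 6 conditions for each gene (y axis), with the 95% interval of the limma fit as bars. IER3 at -1.82 is the 1 gene that passed the adjusted threshold; the interval of CSRNP1 runs from -0.32 to 0.25.

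The slope over hours in the 8 libraries at 50 nM was compared between the lines. IER5 had the 1 difference that passed (6.12% of all tested genes did), with 0.0231 log2 units per hour in KYSE510 and -0.0453 in TE7. The difference of -0.0685 ± 0.0145 had a limma adjusted p of 0.0449, and it no longer passed when any of the 8 libraries was left out (adjusted p 0.0571 to 0.415). CSRNP1 had slopes of -0.253 log2 units per hour in KYSE510 and -0.255 in TE7, SERTAD1 of -0.135 and -0.137, and IER5L of 0.254 and 0.240. Their slope differences were -0.0015 ± 0.0419, -0.0022 ± 0.0153 and -0.0138 ± 0.0240 log2 units per hour, and none passed.

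A list of 44 other early-response genes gave the setting. Their median change was 1.10 at 2 h, 0.47 at 4 h, 0.16 at 6 h, -0.29 at 12 h and -0.50 at 200 nM. At 2 h 12 of the 44 were at least 1 above DMSO in both lines (0.621% of all tested genes were), and 1 of the 44 passed the limma test (0.0128% of all tested genes passed and were higher), with 26 at an unadjusted p under 0.05 (10.8% of all) and 0 that passed and were lower. FOSL1, a partner of JUN in AP-1, rose by 3.36 ± 0.23 at 2 h, with KYSE510 going from 10.2 to 157 FPKM and TE7 from 41.3 to 316 (limma adjusted p = 0.00912). It no longer passed when KYSE510 DMSO was left out (3.05, limma adjusted p = 0.0540) or when any 1 of the 8 libraries at 50 nM was left out (adjusted p 0.0503 to 0.250). EGR3, a zinc-finger factor, had the largest mean change, 3.75 ± 0.46 (limma adjusted p = 0.113). The nuclear receptor NR4A1 had the third largest, 3.12 ± 0.73 (limma adjusted p = 0.283), and neither passed. EGR3 was at 0.168 FPKM in KYSE510 DMSO and 0.485 in TE7 DMSO, so it met the filter through THZ1 libraries alone. The same holds for EGR2 and EGR4, which with EGR3 are among the 12. Genes so low in DMSO had little room to fall. The 3 smallest were FOS at -1.49 ± 0.61, BTG1 at -0.21 ± 0.23 and CTGF at -0.11 ± 0.75, and none passed. Without the 3 libraries that stood apart, and so against TE7 DMSO alone, 11 of the 44 passed and were higher at 2 h (0.809% of all genes tested there) and 1 was lower (1.05% of all).

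At the later times the list held both rises and falls. FOSL1 was the 1 gene that passed at 4 h (0.0256% of all tested genes passed and were higher) and the 1 that passed at 6 h (0.692% of all). At 12 h 3 rose (3.27% of all tested genes did) and 7 fell (25.2% of all). At 200 nM 2 rose (3.22% of all) and 12 fell (35.3% of all). With median-of-ratios scaling 5 rose and 1 fell at 12 h, and 6 fell at 200 nM. The share of all genes that passed with that scaling is not given here. IER3 and IER5L, at 2.61 and 1.85, lay above the highest of the 44 at 200 nM, GADD45B at 1.62 ± 0.33, a stress gene of the GADD45 family named after its value was seen.

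**Figure D5:**
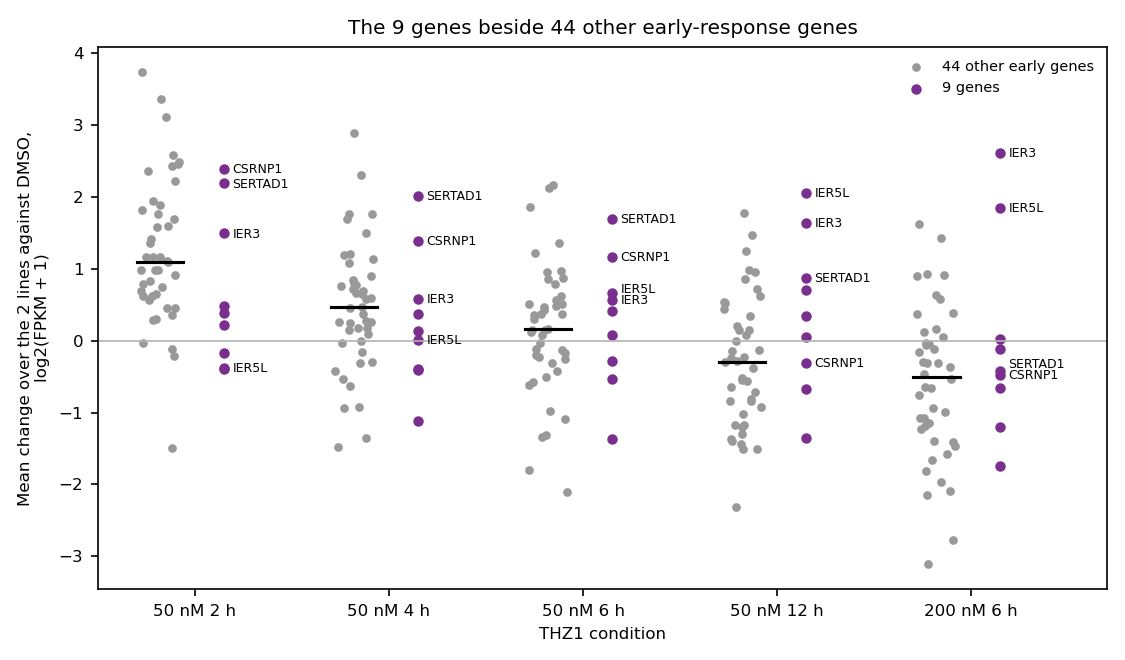
Mean change over the 2 lines against DMSO in log2(FPKM + 1) (y axis) in the 5 THZ1 conditions (x axis), grey points for the 44 other early genes with their median as a bar, spread sideways at random, and purple points for the 9 genes. The grey median goes from 1.10 at 2 h to -0.50 at 200 nM. IER3 at 2.61 and IER5L at 1.85 are above all grey points at 200 nM, IER5L by less than its SE.

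Of 3 tested relatives of the 9 genes, 1 passed, and it was lower at 12 h (25.2% of all tested genes were) and at 200 nM (35.3%). CDCA4, another SERTA-domain protein, fell by 1.29 ± 0.24 at 12 h (limma adjusted p = 0.00735) and fell by 2.83 ± 0.24 at 200 nM (limma adjusted p = 0.000457). Its levels at 200 nM were 5.65 FPKM in KYSE510 and 6.46 in TE7, from 35.1 and 68.6 in DMSO. SERTAD4 was at 1.24 ± 0.31 at 2 h (limma adjusted p = 0.297) and at -0.91 ± 0.31 at 200 nM (limma adjusted p = 0.0501). IER3IP1, which binds IER3, passed in no condition, and CSRNP3 was too low to test. Among 19 genes whose products bind or act with the 9, 0 passed at 2, 4 or 6 h by limma. At an unadjusted p under 0.05 were 1, 2 and 1 of them, beside 10.8%, 15.8% and 22.7% of all tested genes. At 12 h 0 rose and 8 fell (25.2% of all tested genes fell), and at 200 nM 0 rose and 8 fell (35.3% of all). AXIN1, the scaffold of the beta-catenin destruction complex, fell by 1.89 ± 0.20 at 12 h (limma adjusted p = 0.00141) and by 2.21 ± 0.20 at 200 nM (limma adjusted p = 0.000457). PPP2R2A, a regulatory subunit of PP2A, fell by 1.41 ± 0.29 and 1.80 ± 0.29 (limma adjusted p = 0.00961 and 0.00254). PPP2CA, a catalytic subunit of PP2A, fell by 2.33 ± 0.34 at 200 nM (limma adjusted p = 0.00182), and E2F1 fell by 1.55 ± 0.45 at 12 h (limma adjusted p = 0.0357). The lines were uneven for E2F1 at 12 h, with -0.45 in KYSE510 and -2.66 in TE7, and for PPP2R2A at 12 h, with -2.04 and -0.77. AXIN1 was at -2.02 and -1.76 at 12 h, and PPP2CA at -1.99 and -2.67 at 200 nM.

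The 3 genes most like each of the 9 over the 12 libraries were found by Pearson r after each line's mean was taken away. The search covered 8857 genes with a mean of at least 5 FPKM. It left out the 9 themselves and symbols with a dot, a LINC prefix or a clone prefix. CSRNP1 was most like FOSL1 at r = 0.974, the clock gene PER2 at 0.968 and the receptor kinase EPHA2 at 0.962. SERTAD1 was most like the noncoding RNA SNHG17 at r = 0.986, NSMAF at 0.973 and the metalloprotease ADAMTS1 at 0.973. IER3 was most like TCTN1 at r = 0.913, ENO3 at 0.908 and GUSB at 0.902, and IER5L most like TMA7, TMED3 and ATP6AP2 at 0.956, 0.956 and 0.952. IER5 was most like the stress gene GADD45A at r = 0.875, MYADM at 0.850 and SLC30A1 at 0.846, and IER2 most like TMX3 at 0.939, HLA-C at 0.864 and the pseudogene PPIAP22 at 0.863. CSRNP2 was most like DLGAP4, CBX6 and RGP1 at r = 0.989, 0.981 and 0.979. SERTAD2 was most like KIF23, PROSER1 and HNRNPF at r = 0.974, 0.962 and 0.961, and SERTAD3 most like TICRR, PHF12 and ZBTB7B at 0.958, 0.947 and 0.939.

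The 9 genes are mostly short. On hg19 IER3 spans 1356 bp on chromosome 6 (30710976 to 30712331), IER5 2340 bp on chromosome 1, IER5L 2706 bp on chromosome 9, SERTAD3 3862 bp, SERTAD1 4434 bp and IER2 4494 bp on chromosome 19 (13261229 to 13265722). CSRNP1 spans 12708 bp on chromosome 3 (39183346 to 39196053), CSRNP2 22458 bp on chromosome 12 and SERTAD2 119385 bp on chromosome 2, against a median span of 23952 bp over tested genes. Thus 6 of 9 were under 5000 bp, as were 19.97% of all tested genes, and 7 of 9 had a longest transcript of at most 2 exons in GENCODE 29, as had 18.03% of the 15105 tested genes with one. Of all 3118 tested genes under 5000 bp, 0.898% were at least 1 above DMSO in both lines at 2 h and 3.94% at 200 nM, beside 0.621% and 1.25% of all tested genes. Both late genes, IER3 and IER5L, are under 5000 bp, and of the early genes IER3 and SERTAD1 are while CSRNP1 is not.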

How the data were processed

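Per the labels' protocols, TruSeq libraries of polyadenylated RNA from 12 samples were read on an Illumina HiSeq. The authors deposited gene tables in FPKM, laid out as Cufflinks tables per the file headers. STAR, Cufflinks and hg19 come from the submitters' processing notes, with versions, settings and annotation not given in the sources used here. Fragment totals are unknown here. The tables' 95% bounds are the authors' and cover counting error only. Over 108 values of the 9 genes, the upper one exceeded the value by 2.47% to 30.91% (median 6.09%).

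Here the FPKM of identifiers listed at several loci were summed, and a gene was tested if 2 or more libraries reached 1 FPKM. On log2(FPKM + 1), limma 3.58.1 in R 4.3.3 was fitted with a term per condition and per line (trend=TRUE, residual df 5, prior df 2.861). Tests were two-sided at 0.05 after Benjamini-Hochberg adjustment across the tested genes. Slopes used the 8 libraries at 50 nM (residual df 4, prior df 2.966). Same-numbered libraries come from the same cell line, which is the pairing. Against DMSO the lines are the replicates. In the line and slope tests the lines are the groups compared, and each line's libraries of different conditions or times stand in as replicates. No line has a repeated library in any condition. The p-values reflect the spread among these 12 libraries alone, which may be technical in part. The code was tested on simulated data.

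The members, lists and rules were chosen with earlier results of these data known. Named were all 9 genes, the 3 highest and 3 lowest of the other early genes by mean change at 2 h, all tested relatives, up to 6 partners past the threshold, and the 3 genes most like each of the 9. Other genes named were chosen after their values were seen. Promoters are RefSeq's, found for 8 of the 9 genes and not for IER3. Alternatives were other pseudocounts, filters, scalings and variance models, libraries left out, and a fit with no line block.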

Additional observations from a re-analysis of the deposited data

Results flagged for a closer look

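IER5, IER5L and IER2 moved in opposite directions in the 2 lines against DMSO in some conditions, with the authors' bounds apart in both. The differences were not tested because each line has 1 library per condition. The bounds cover counting error only, and the share of all tested genes with such opposite moves is not given here. For IER5 the change in TE7 exceeded that in KYSE510 by 1.37 log2 units at 2 h, 1.32 at 4 h and 1.20 at 6 h. For IER5L it did so by 1.29 at 2 h and 1.29 at 4 h. IER2 at 200 nM had the widest gap, 3.58, with 17.3 FPKM in KYSE510 and 77.4 in TE7. All these cases use the KYSE510 DMSO library, which stood apart, and the IER2 case also uses both 200 nM libraries that did. Without DMSO, 200 nM against 50 nM at 6 h was -1.24 in KYSE510 and 1.59 in TE7 for IER2. The part of the KYSE510 DMSO library in the IER5 and IER5L cases was not tested. The slope of IER5 over hours at 50 nM, which uses no DMSO library, differed by -0.0685 log2 units per hour between the lines (limma adjusted p = 0.0449).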

How the results depend on the processing

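The line difference of IER3 kept its direction and passed under all alternatives run, from -2.16 to -1.67. The line differences of IER2 and IER5 moved with the libraries used. IER2 was at -1.07 without either 200 nM library and at -0.96 without the 3 libraries that stood apart. IER5 was at 0.68 without either DMSO library, 0.69 without either 200 nM library and 0.92 without the 3. The share of all genes that differed in these fits is not given here, so the 9 are not counted in them. The slope difference count of 1 went to 0 with a pseudocount of 0.1, no filter, median-of-ratios scaling, no mean trend, log2 hours, DMSO added as 0 h and any 1 library left out, and IER5 reversed to 0.0201 with DMSO added. Of the 9, the early class was 2 genes with a pseudocount of 5 (without IER3) or a mean of at least 5 FPKM (without CSRNP1), and the late class was 3 with median-of-ratios scaling (with IER2).

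Where a library left out leaves 1 in a condition, its spread is assumed to be like that of the others. For the 44 other early genes, rises at 2 h were 2 with a pseudocount of 5 and 11, with 1 fall, without the 3 libraries that stood apart, and 0 to 8 with 1 library left out (8 without TE7 DMSO). At 4 h these 3 left out gave 7 rises and 2 falls, and 1 library left out gave 0 to 3 rises and 0 to 1 falls. At 6 h rises were 2 with a pseudocount of 5 and 2 with median-of-ratios scaling, 7 rises and 3 falls came without the 3 libraries, and 0 to 4 rises and 0 to 2 falls with 1 left out. At 12 h no filter gave 1 rise and 4 falls, median-of-ratios scaling 5 and 1, and 1 library left out 1 to 5 rises and 1 to 10 falls. At 200 nM a mean of at least 5 FPKM gave 1 rise, equal sums of FPKM and median-of-ratios scaling 6 falls each, and 1 library left out 1 to 5 rises and 10 to 13 falls. With no replicate block, that is with the pairing by line left out, rises were 0 at 2, 4 and 6 h, 12 h had 1 rise and 0 falls, and 200 nM had 5 falls. The share of all genes that passed in each setting is not given beside these counts. They show how the counts moved with the settings and are not read as results about the 44 genes. The cause of these changes was not tested. Depth limits CSRNP1 and CSRNP2 most, which were under 1 FPKM in some libraries.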
